A study of Homo sapiens with 8 samples.

Results

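Mitochondrial ribosomal protein genes were selected from the RNA-sequencing count table by their symbols, which had to consist of MRPL or MRPS, a number and at most a final letter. This gave 78 of the 38551 genes in the table, 49 MRPL genes named for the large subunit and 29 MRPS genes named for the small subunit. To assess how these genes respond when the immunoproteasome is inhibited, counts of MOLM-13 cells kept for 72 h in 100 nM PR-957 were set against counts of MOLM-13 cells given only the diluent DMSO over the same time, with 4 libraries in each group. MOLM-13 comes from human acute myeloid leukemia and carries a KMT2A rearrangement, and PR-957, also named ONX-0914, blocks the catalytic immunoproteasome subunit PSMB8. Only 1 cell line was measured, and the labels do not say whether the replicates were separate cultures, so the p-values describe the spread between these libraries, which may be technical.

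The mitochondrial ribosome, or mitoribosome, translates the few messenger RNAs of the mitochondrial genome, all of which encode subunits of the respiratory chain and the ATP synthase. Its ribosomal RNAs are made inside the organelle, whereas every one of its proteins is encoded in the nucleus, made by cytosolic ribosomes and imported. Many of these proteins descend from the bacterial ribosome and the others were added during the evolution of mitochondria. Acute myeloid leukemia cells are known to rely on mitochondrial translation.

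Symbols do not match position in every case. The products of MRPS18A and MRPS30 sit in the large subunit of the human mitoribosome, and MRPS36 encodes a subunit of the 2-oxoglutarate dehydrogenase complex. Values are therefore given first by symbol and then by structure.

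Total counts ran from 16675036 to 23111223 per library, and DMSO replicate 4 was the deepest. The first principal component held 59.5% of the variance and separated the treatments. The second held 13.5% and set replicates 1 and 2 of both groups (8.92 to 14.4) apart from replicates 3 and 4 (-27.8 to -2.02). DMSO replicate 4 was the lowest on it, and the sample titles name no batch. The myeloid markers of MOLM-13 were present in all libraries, with CD33 at 585 to 922 counts. Summed normalised levels of the 8 myeloid markers were 1058 to 1121 CPM (counts brought to equal library size with factors from the trimmed mean of M-values, TMM) in DMSO and 1766 to 2036 CPM in PR-957, and members went both ways, since 3 of the 8 were called higher and 2 lower. Group means ran from 153 to 820 CPM for LYZ and from 175 to 506 CPM for MPO, but from 340 to 173 CPM for FLT3 and from 207 to 131 CPM for PTPRC. The 5 lymphoid markers summed to 0.94 to 1.62 CPM in DMSO against 0.89 to 1.64 CPM in PR-957, with CD3E at 0 counts in all 8 libraries, the 3 fibroblast markers to 1.38 to 2.48 and 1.28 to 3.21 CPM, and the 4 erythroid markers to 0.04 to 0.30 and 0.50 to 0.82 CPM, with HBB at 0 to 2 counts. The 4 epithelial markers summed to 44.6 to 53.1 CPM in DMSO against 29.2 to 40.7 CPM in PR-957, mainly from KRT18, at group means of 33.7 and 27.5 CPM near the 37.5 and 38.6 CPM of CD33, and from KRT8 at 15.8 and 7.25 CPM. The part of these marker shifts in the results was not tested. In bulk RNA, a change in the number of cells of a kind and a change in RNA per cell cannot be told apart.

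Of the 78 genes, 76 passed the filter on low counts and were tested, all 49 MRPL genes and 27 MRPS genes. MRPS12, which encodes the protein of the decoding centre, had 0 counts in all 8 libraries and is placed by the table on chromosome 19 and on a second contig. MRPS24 had 0 to 7 counts per library and shares 90.9% of its exon bases on the same strand with the readthrough gene URGCP-MRPS24, which had 0 counts in all libraries. MRPS18B was tested, but at only 10 to 19 counts per library, and the table places it at 6 further positions besides chr6:30617320-30626393 (hg38). Reads that fit several placements or overlapping genes are not assigned under the counting options of the file header, so the levels of these 3 genes are uncertain.

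More mitoribosomal protein transcripts rose than fell with PR-957, and a large share did neither. With an adjusted p under 0.05 in edgeR's quasi-likelihood test as the call, 36 of the 76 genes rose, 9 fell and 31 were not called. Among all 13179 genes tested, 46.6% were called, 23.1% as higher and 23.5% as lower, against 47.4% higher and 11.8% lower among the mitoribosomal protein genes. The median log2 fold change was 0.18 for the mitoribosomal protein genes and 0.003 for all genes, and 58 of the 76 fold changes were positive. Without DMSO replicate 4, 34 genes rose and 11 fell. With replicates 1 and 2 of both groups alone the counts were 36 and 9, and with replicates 3 and 4 alone they were 25 and 7.

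The changes were small in size. A call together with a change of at least 1.5-fold was met by MRPL27 and MRPS7 only, 2 of 76 genes, where 13.8% of all tested genes met it. In 35 genes every PR-957 library lay above every DMSO library, for which the share among all genes was 20.8%, and in 8 genes every PR-957 library lay below, for which the share among all genes was 21.7%. Across the 76 genes, fold changes ran from -0.57 for MRPL45 to 0.73 for MRPL27 on the log2 scale, and the middle portion between the quartiles ran from 0.01 to 0.33.

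**Figure D1:**
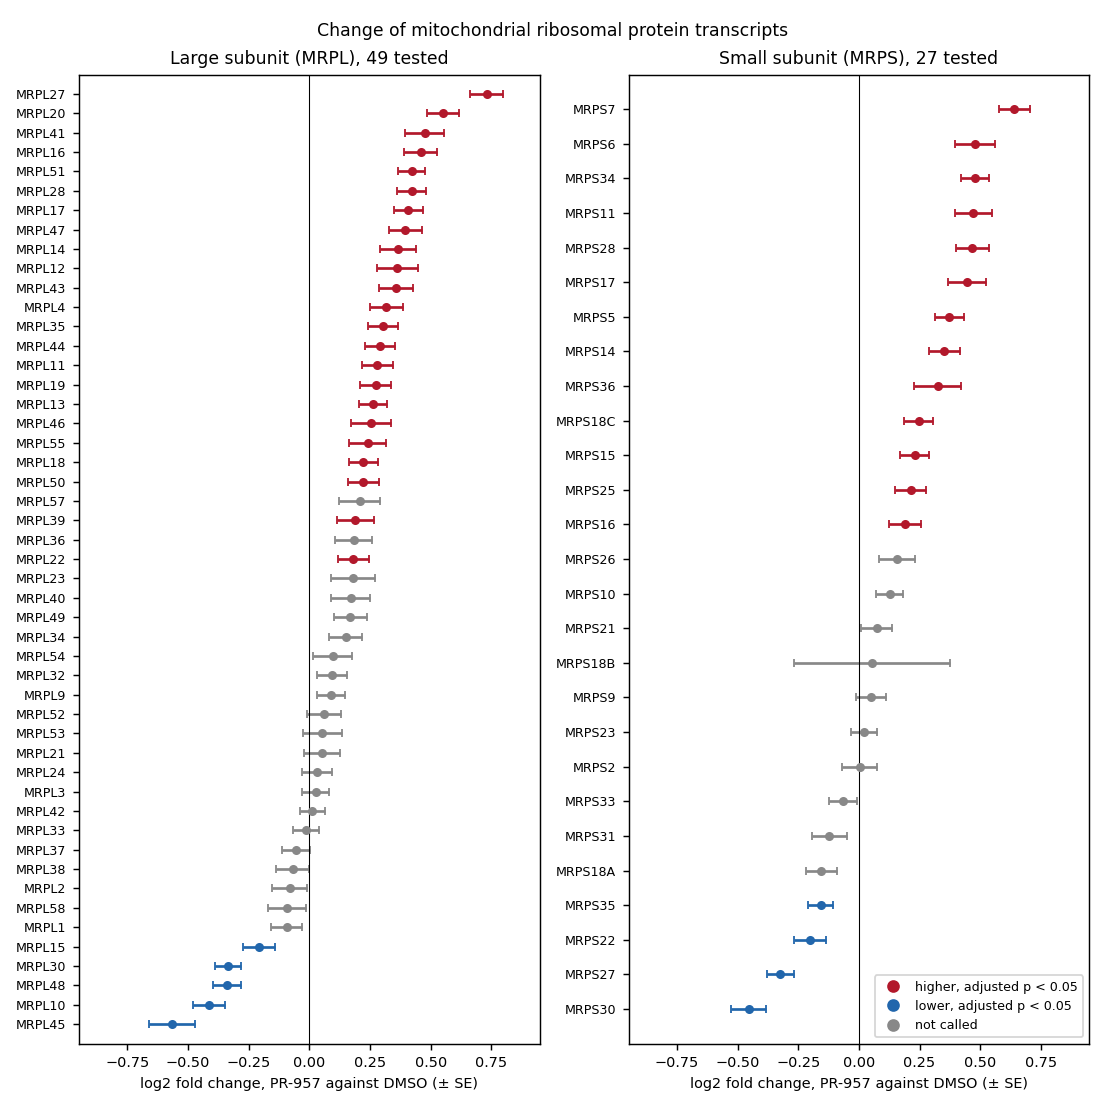
Log2 fold change of PR-957 against DMSO (x axis, points with SE as bars) for the 49 MRPL genes and the 27 tested MRPS genes (y axis), in red where higher, blue where lower and grey where not called. Most points lie right of 0 in both panels, with MRPL27 at 0.73 and MRPS7 at 0.64 at the top and MRPL45 at -0.57 and MRPS30 at -0.45 at the bottom.

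The subunits were compared by their counts and medians, without a test. Of the MRPL genes, 23 of 49 rose and 5 fell, with a median log2 fold change of 0.18. Of the MRPS genes, 13 of 27 rose and 4 fell, with a median of 0.16. The difference of the medians, MRPL minus MRPS, was 0.02, where the same difference varied between single libraries with an SD of 0.03, and it depended on the libraries used. It was -0.0398 with replicates 3 and 4 alone, 0.0845 with replicates 1 and 2 alone, -0.0263 without DMSO replicate 2 and 0.0676 without DMSO replicate 4. The MRPS median fell to 0.0912 in that last fit, where the MRPL median was 0.16. Sorting by structure, with MRPS18A and MRPS30 placed in the large subunit and MRPS36 left out, gave 23 of 51 genes higher and 6 lower for the large subunit and 12 of 24 genes higher and 3 lower for the small subunit, with medians of 0.18 and 0.17.

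The summed transcript levels of the MRPL genes and of the MRPS genes were higher in PR-957. Summed over all 49 MRPL genes, the DMSO libraries held 3642, 3393, 3682 and 3202 CPM for replicates 1 to 4, and the PR-957 libraries held 4105, 3777, 3911 and 3719 CPM. Summed over the 29 MRPS genes, the DMSO libraries held 2037, 1990, 2065 and 1830 CPM and the PR-957 libraries 2244, 2128, 2130 and 2086 CPM. In both symbol groups the lowest PR-957 library lay above the highest DMSO library, and DMSO replicate 4 was the lowest library. By structure, the large subunit sums overlapped, at 3346 to 3838 CPM in DMSO and 3828 to 4234 CPM in PR-957. The small subunit sums did not, at 1673 to 1894 CPM and 1960 to 2095 CPM. The group means were 3480 ± 225 and 3878 ± 171 CPM for MRPL (SD, n = 4), an increase of 11.5%, and 1980 ± 105 and 2147 ± 67.5 CPM for MRPS, an increase of 8.42%. The ratio of the MRPL to the MRPS sum, which does not depend on scaling, was 1.76 ± 0.0384 in DMSO and 1.81 ± 0.0314 in PR-957. Its ranges, 1.705 to 1.788 and 1.775 to 1.836, overlapped. For replicates 1 to 4 the ratio was 1.788, 1.705, 1.783 and 1.75 in DMSO and 1.829, 1.775, 1.836 and 1.783 in PR-957. Within each replicate number this ratio by symbol was thus higher in PR-957, which was not tested. It counts MRPS18A and MRPS30 with the MRPS genes, and their log2 fold changes were -0.16 and -0.45. The ratio was not computed by structure, so it does not show a shift between the subunits.

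**Figure D2:**
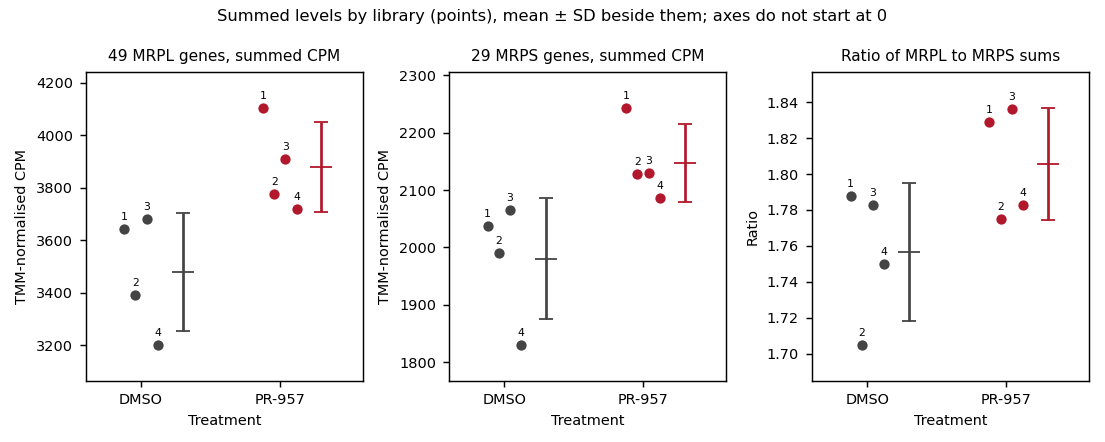
Summed TMM-normalised CPM of the 49 MRPL genes and the 29 MRPS genes and the ratio of these sums (y axes, not starting at 0) by treatment (x axis), with a point for each library, its replicate number above it, and mean ± SD beside the points. The sums do not overlap between DMSO and PR-957, whereas the ratios overlap between 1.775 and 1.788.

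The largest increase of a large subunit gene was in MRPL27 (chr17:50367867-50373184, hg38, minus strand), whose bacterial counterpart lies near the peptidyl transferase centre. Its levels were 31.8, 30.2, 34.0 and 29.8 CPM in DMSO replicates 1 to 4 and 54.0, 50.8, 55.8 and 47.9 CPM in PR-957. All PR-957 libraries lay well above all DMSO libraries, with a log2 fold change of 0.73 ± 0.07 (SE) and an adjusted p of 6.42e-08. MRPL20 (chr1:1401909-1407293, minus strand), the homologue of a bacterial protein that binds the large ribosomal RNA early in assembly, was at 77.0, 71.5, 78.0 and 63.3 CPM in DMSO and at 110.0, 98.9, 107.5 and 107.4 CPM in PR-957. The groups did not overlap, and the log2 fold change was 0.55 ± 0.07 (adjusted p = 1.43e-06). Next by size were MRPL41 at 0.47 ± 0.08, MRPL16 at 0.46 ± 0.07 and MRPL51 at 0.42 ± 0.06, of which MRPL41 and MRPL51 encode proteins that have no bacterial counterpart and MRPL16 encodes one that has. Their adjusted p-values ran from 4.92e-06 to 0.000141, and none overlapped between groups.

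Among small subunit genes MRPS7 (chr17:75261879-75266376, plus strand) rose most, and its product belongs to the head of the small subunit near the path of the messenger RNA. DMSO replicates 1 to 4 held 47.4, 50.01, 53.4 and 42.6 CPM and PR-957 replicates 73.2, 77.0, 74.7 and 76.3 CPM. The groups were far apart, with a log2 fold change of 0.64 ± 0.07 and an adjusted p of 2.2e-07. MRPS34, which encodes a mitochondria-specific protein needed for the stability of the small subunit, rose from 98.1 ± 6.62 to 137 ± 6.76 CPM (log2 fold change 0.48 ± 0.06, adjusted p = 2.37e-06). MRPS11 and MRPS28, homologues of the bacterial proteins S11 and S1, rose by 0.47 ± 0.08 and 0.47 ± 0.07 on the log2 scale (adjusted p = 5.28e-05 and 1.76e-05), with no overlap between groups. MRPS6 was at 31.6, 33.9, 34.4 and 32.4 CPM in DMSO and at 46.5, 37.3, 51.3 and 49.2 CPM in PR-957, where replicate 2 was the lowest and close to the DMSO range. Its log2 fold change was 0.48 ± 0.08 (adjusted p = 0.000123). MRPS6 shares 18% of its exon bases on the same strand with SLC5A3, which had a log2 fold change of 0.52. Reads that overlap both genes are not assigned under the counting options, so the counts of MRPS6 leave them out.

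The decreases were fewer. They included single transcripts for the peptide tunnel exit (MRPL45) and the factor stalk (MRPL10) of the large subunit, regions where the other called genes rose. MRPL45 (chr17:38297023-38323218, plus strand), which lies at the exit of the peptide tunnel and helps to attach the mitoribosome to the inner membrane, was at 23.1, 21.3, 20.8 and 21.8 CPM in DMSO and at 15.2, 17.1, 12.3 and 14.3 CPM in PR-957. The groups did not overlap and the log2 fold change was -0.57 ± 0.09 (adjusted p = 7.39e-05). MRPL45 has a second placement in the table and a related locus, MRPL45P2, which had a log2 fold change of -0.39 and was not called (adjusted p = 0.0788). Reads that fit both placements are not assigned, so the level of MRPL45 is uncertain. MRPL10 (chr17:47823272-47831541, minus strand), which anchors the stalk, was at 52.0, 54.2, 57.8 and 49.2 CPM in DMSO and at 42.7, 39.6, 38.6 and 39.0 CPM in PR-957, again with no overlap (log2 fold change -0.41 ± 0.06, adjusted p = 3.52e-05). MRPL48 and MRPL30 fell by 0.34 ± 0.06 and 0.34 ± 0.05 on the log2 scale (adjusted p = 0.0001 and 4.57e-05). MRPL15 fell by 0.21 ± 0.07 (adjusted p = 0.0152) with overlapping groups, and its call was lost with library totals as the only scaling (adjusted p = 0.0889), with replicates 3 and 4 alone (0.0709), without DMSO replicate 1 (0.0655) and without PR-957 replicate 4 (0.0529).

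MRPS30 (chr5:44808947-44815514, plus strand), a mitochondria-specific protein of the large subunit despite its symbol, was at 96.8, 83.3, 87.5 and 84.1 CPM in DMSO and at 72.1, 67.1, 59.7 and 57.6 CPM in PR-957. PR-957 replicates 3 and 4 were the lowest and the groups did not overlap, with a log2 fold change of -0.45 ± 0.07 and an adjusted p of 4.04e-05. MRPS27 (chr5:72219403-72320240, minus strand), a pentatricopeptide repeat protein of the small subunit, was at 161.0, 160.2, 161.1 and 145.1 CPM in DMSO and at 126.5, 131.1, 122.2 and 121.0 CPM in PR-957. Its groups were also apart, and the log2 fold change was -0.32 ± 0.05 (adjusted p = 7.63e-05). MRPS22 and MRPS35, both mitochondria-specific, fell by 0.20 ± 0.06 and 0.16 ± 0.05 (adjusted p = 0.0153 for both), and neither was called with library totals alone (adjusted p = 0.108 and 0.192) or with replicates 3 and 4 alone (0.141 and 0.168). MRPS22 was also not called without DMSO replicate 1 (0.0607).

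**Figure D3:**
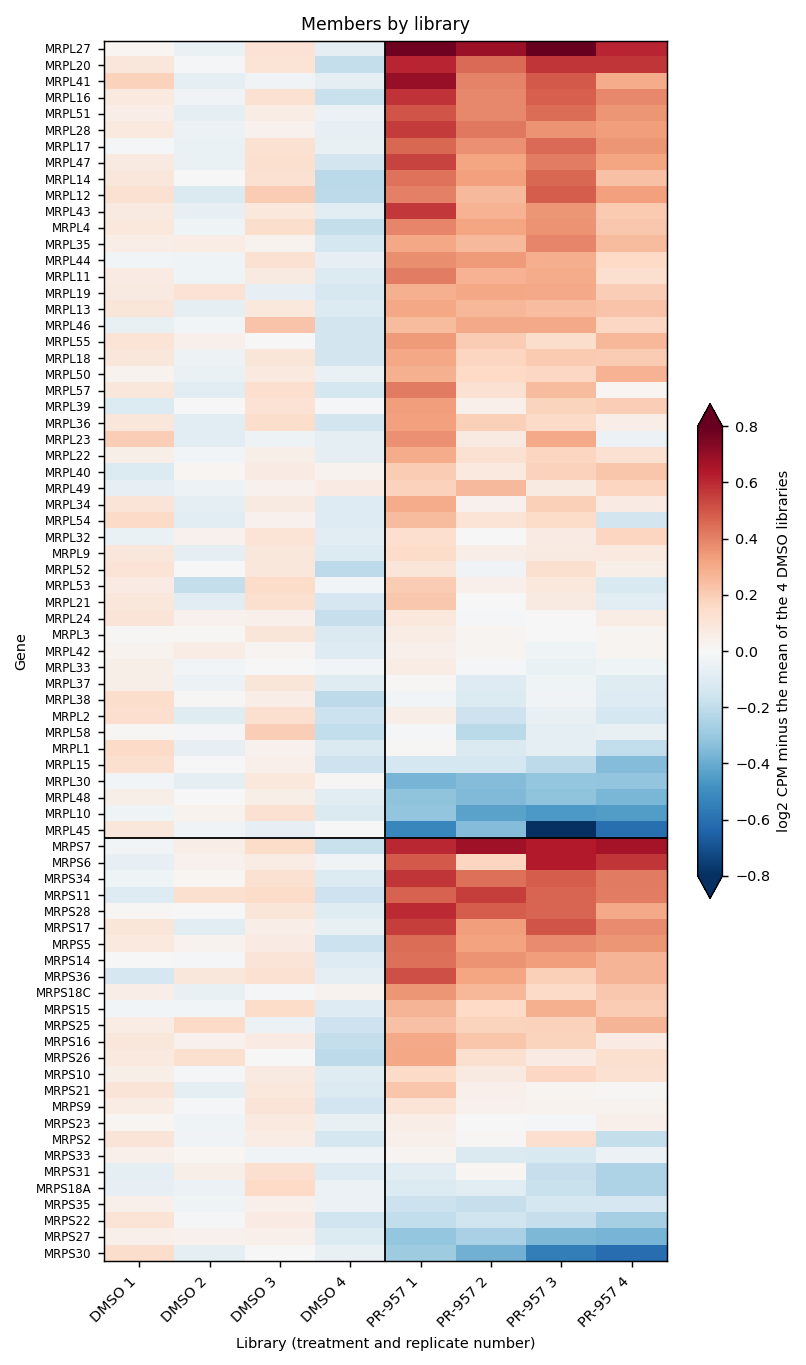
Log2 CPM of each gene minus the mean of its 4 DMSO libraries (color, blue below 0 and red above 0) for the tested genes with an average log2 CPM of at least 1 (y axis, MRPL above the line and MRPS below, each sorted by fold change) in each library (x axis). The upper rows of both blocks are red in all 4 PR-957 libraries, the bottom rows from MRPL30 to MRPL45 and from MRPS27 to MRPS30 are blue in all 4, and DMSO replicate 4 is pale blue in most rows.

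Genes for proteins with a bacterial counterpart and genes for proteins added in mitochondria were counted apart. Of 44 tested genes for homologues of bacterial ribosomal proteins, 26 rose (59.1%) and 3 fell (6.82%), with a median log2 fold change of 0.23. Of 31 genes for mitochondria-specific proteins, 9 rose (29.03%) and 6 fell (19.4%), with a median of 0.05, which is near the 23.1% higher and 23.5% lower among all genes. In the small subunit 10 of 14 genes with a bacterial counterpart rose, none of them fell and the median was 0.30, whereas 2 of 10 mitochondria-specific genes rose (MRPS34 and MRPS25), 3 fell (MRPS22, MRPS27 and MRPS35) and the median was -0.02. In the large subunit 16 of 30 genes with a bacterial counterpart rose and 3 fell (median 0.20), and 7 of 21 mitochondria-specific genes rose and 3 fell (median 0.10). No test of this difference was made, because the genes had been chosen with results of these data known. Over the alternative settings the number of rising genes was 20 to 33 of those with a bacterial counterpart and 5 to 13 of the mitochondria-specific genes.

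Within the functional regions of the particle, members did not all move one way. At the messenger RNA path and decoding centre, MRPS5, MRPS7, MRPS11 and MRPS18C rose, MRPS2 was not called with a log2 fold change of 0.004, and MRPS12 and MRPS24 were not tested. At the stalk that recruits translation factors, MRPL12 and MRPL11 rose, MRPL10 fell, and MRPL53 and MRPL54 were not called, at 0.05 and 0.10. MRPL12, the homologue of the bacterial L7/L12 stalk protein, was at 144.5, 122.2, 152.6 and 115.0 CPM in DMSO and at 175.4, 158.7, 186.0 and 166.3 CPM in PR-957, with no overlap and a log2 fold change of 0.36 ± 0.08 (adjusted p = 0.00214). At the tunnel exit MRPL17, MRPL47 and MRPL22 rose and MRPL45 fell, with MRPL23 and MRPL24 not called at 0.18 and 0.03. In the central protuberance, 4 of 9 genes rose (MRPL27, MRPL46, MRPL55 and MRPL18), MRPL48 fell and 4 were not called. Among the latter was MRPL58, a peptidyl-tRNA hydrolase that releases stalled chains, at 44.9 ± 5.06 CPM in DMSO against 42.1 ± 2.51 CPM in PR-957 (log2 fold change -0.09 ± 0.08, adjusted p = 0.339).

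The 3 genes of the S18 family, whose products occupy different sites of the mitoribosome, were read separately. MRPS18C, the small subunit member with a bacterial position, rose from 53.1 ± 1.81 to 63.0 ± 3.75 CPM (log2 fold change 0.25 ± 0.06, adjusted p = 0.00231), although not with replicates 3 and 4 alone (adjusted p = 0.128). MRPS18A, in the large subunit, was at 58.7, 59.4, 68.5 and 59.6 CPM in DMSO and at 56.9, 58.1, 54.3 and 51.7 CPM in PR-957. Its groups did not overlap, the log2 fold change was -0.16 ± 0.06 and the adjusted p was 0.0537, which ran from 0.0255 to 0.725 over the alternatives. MRPS18B was near the detection limit in both groups, at 0.759 ± 0.0936 and 0.784 ± 0.227 CPM, and no change was detectable at this depth (log2 fold change 0.05 ± 0.32, adjusted p = 0.905). MRPS36, the dehydrogenase subunit, rose from 13.6 ± 1.21 to 17.1 ± 1.66 CPM (log2 fold change 0.32 ± 0.10, adjusted p = 0.00965) and was not called without PR-957 replicate 1 (0.0509) or with replicates 3 and 4 alone (0.251). This gene also has a second placement, and reads that fit both placements are not assigned, so its level is uncertain.

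Levels between genes were compared per exon length as length-scaled counts (TPM, which share a fixed total in each library). The median of the gene means was 91.5 TPM in DMSO and 105 TPM in PR-957 for the 49 MRPL genes, and 76.1 and 86.3 TPM for the 27 tested MRPS genes. By the mean over all 8 libraries the highest large subunit gene was MRPL12, at 250 to 316 TPM in DMSO and 350 to 416 TPM in PR-957, followed by MRPL33, MRPL51, MRPL18 and MRPL3. Within DMSO alone MRPL33 was higher, at 312 to 323 TPM, with a range that overlapped that of MRPL12. By the same mean the highest small subunit gene was MRPS21, at 225 TPM in DMSO and 245 TPM in PR-957, whereas within PR-957 alone MRPS34 was higher, at 273 TPM. MRPS21 was not called, at 162 ± 12.01 and 170 ± 12.2 CPM (log2 fold change 0.07 ± 0.06, adjusted p = 0.359), but passed with library totals as the only scaling (adjusted p = 0.0303). The lowest large subunit gene was MRPL45, at 13.7 TPM in DMSO and 9.57 TPM in PR-957. It has a second placement, and reads that fit both placements are not assigned, so its level and rank are uncertain. When the 78 genes were ordered by mean TPM, ranges of successive genes over all 8 libraries overlapped at all but 3 steps, after MRPS33, MRPL45 and MRPS18B. These ranges pool both treatments and include the change with PR-957, so they do not show whether neighbours differed within a treatment. For example, MRPL51 and the next gene MRPL18 were at 255 to 267 and 213 to 240 TPM in DMSO. In PR-957 they were at 356 to 377 and 270 to 283 TPM, apart in each group. Exon lengths join all isoforms and placements of a gene, which lowers the TPM of genes with second placements.

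**Figure D4:**
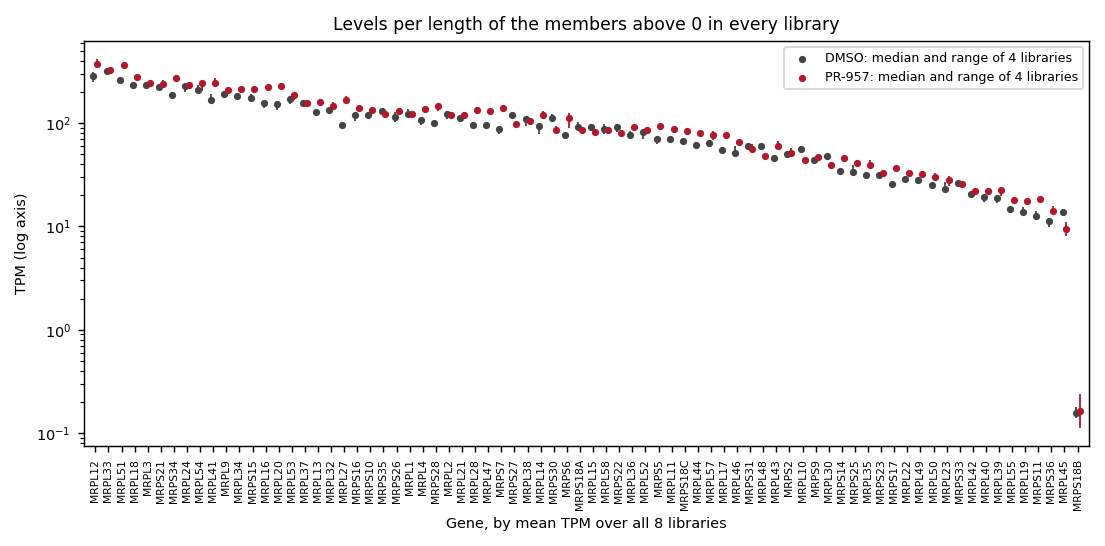
TPM on a log axis (y axis; point, median; line, range of 4 libraries) in DMSO and PR-957 for the members above 0 in every library, ordered by mean TPM (x axis). Levels fall from 250 to 416 TPM for MRPL12 to 8.16 to 14.2 TPM for MRPL45, and MRPS18B stands apart at 0.113 to 0.236 TPM.

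Promoter sequences of 69 of the 78 genes were found in the RefSeq table for GRCh38.p14, which holds 250 bases before and 50 bases after each start. For 54 of the 69 the start lay within 100 bases of the start of the counted gene model. The following windows run from 120 bases before to 30 bases after the start, 5′ to 3′ on the strand of the gene. They were picked to show the largest increases, the largest decreases among MRPS genes, and MRPL46 of a gene pair with a shared start region. Not shown are its partner MRPS11, which held no searched motif, and the falling genes MRPL48, MRPL30, MRPS22 and MRPS35, which lack AAGATGGC. Capitals mark the motifs searched, on either strand, and lower case marks all other bases.
MRPL27: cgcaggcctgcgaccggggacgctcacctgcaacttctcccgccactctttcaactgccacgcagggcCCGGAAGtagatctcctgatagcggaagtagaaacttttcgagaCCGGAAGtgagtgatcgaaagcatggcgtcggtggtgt
MRPL20: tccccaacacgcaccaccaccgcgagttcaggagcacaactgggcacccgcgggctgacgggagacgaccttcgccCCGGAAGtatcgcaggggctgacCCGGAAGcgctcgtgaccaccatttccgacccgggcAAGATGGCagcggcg
MRPS7: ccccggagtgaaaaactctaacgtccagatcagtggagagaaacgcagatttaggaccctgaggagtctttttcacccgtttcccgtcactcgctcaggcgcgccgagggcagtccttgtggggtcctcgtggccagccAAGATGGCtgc
MRPL46: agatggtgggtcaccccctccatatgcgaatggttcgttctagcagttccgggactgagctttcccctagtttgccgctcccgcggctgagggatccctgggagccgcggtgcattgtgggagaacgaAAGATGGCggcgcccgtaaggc
MRPS27: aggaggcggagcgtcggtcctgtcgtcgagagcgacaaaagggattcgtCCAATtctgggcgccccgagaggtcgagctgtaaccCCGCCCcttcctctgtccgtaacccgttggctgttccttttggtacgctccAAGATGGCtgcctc
MRPS30: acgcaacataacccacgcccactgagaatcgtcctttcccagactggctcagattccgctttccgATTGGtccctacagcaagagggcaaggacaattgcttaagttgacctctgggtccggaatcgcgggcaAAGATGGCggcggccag

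These windows lie at chr17:50373155-50373304 (MRPL27, minus strand), chr1:1407264-1407413 (MRPL20, minus), chr17:75261759-75261908 (MRPS7, plus), chr15:88467359-88467508 (MRPL46, minus), chr5:72320211-72320360 (MRPS27, minus) and chr5:44808827-44808976 (MRPS30, plus). The MRPL27 and MRPL20 windows each hold 2 copies of CCGGAAG, the core letters bound by ETS factors. All the windows but that of MRPL27 hold AAGATGGC, the core letters bound by YY1, within the bases after the start, and they include genes that rose and genes that fell. MRPS27 and MRPS30 also hold CCAAT letters, on the gene strand and on the opposite strand respectively, and MRPS27 a GC box (GGGCGG) on the opposite strand.

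Over whole windows and both strands, CCGGAAG was found in 29 of 69 mitoribosomal promoters, or 42%, compared with 19.8% of 9912 promoters of tested genes and 10.7% of all 27305 promoters. AAGATGGC was found in 20 of 69, or 29%, compared with 5.61% and 3.03%. On the gene strand after the start, AAGATGGC occurred in 15 of the 69 genes and in 3.11% of 9845 promoters of tested genes that are not in the set. These letters contain ATG, and in 12 of the 15 genes this ATG was an annotated start codon in GENCODE v44, as it was in 72.2% of the 306 other tested genes that carried the letters there.

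The shares of the other motifs were closer to those of tested genes. The GC box was found in 60.9% of the mitoribosomal promoters and 69.3% of those of tested genes, CCAAT in 29% and 36.8%, the E-box CACGTG in 8.7% and 10.3%, the NRF1 core GCATGCGC in 8.7% and 5.68%, the TATA box TATAAA in 2.9% and 5.65%, and TGATGCAA, a composite bound by ATF4 and C/EBP factors, in 0 of 69 and 0.535%. The letters were not restricted to the genes that rose. CCGGAAG was in 10 of 32 promoters of rising genes, 3 of 7 of falling genes and 15 of 28 of genes not called, and AAGATGGC was in 7, 3 and 8 of them. The matches are letters in a window and were not tested as binding sites.

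Many of these genes start near the start of a gene on the opposite strand. The starts were not required to point away from each other. Some neighbours overlap exons of the member, as KLC4 does for 20.1% of the exon bases of MRPL2 and OAZ3 for 13.9% of those of MRPL9. A gene on the opposite strand started within 1000 bases of the start for 33 of the 76 tested genes, or 43.4%, compared with 30.4% of 13165 tested genes with a position. MRPL46 and MRPS11 start 320 bases apart on opposite strands of chromosome 15 and both rose, by 0.26 ± 0.08 (adjusted p = 0.016) and 0.47 ± 0.08. Of 29 pairings of a tested member with a tested neighbour, in which that pair counts from both sides, the neighbour rose in 9, fell in 3 and was not called in 17. Among all tested genes 23.1% were called higher and 23.5% lower. Both genes rose in 4 pairings, counting MRPL46 and MRPS11 from both sides, and both fell in 2. In no pairing did a member and its neighbour pass in opposite directions. Pairings of other genes were not counted, so whether members and neighbours move together more often than other pairs was not tested. MRPL27 starts 36 bases from EME1, which was not called (log2 fold change -0.14 ± 0.08, adjusted p = 0.171), whereas MRPS27 starts 127 bases from PTCD2, which fell by 0.58 ± 0.09 (adjusted p = 2.69e-05).

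The remaining proteins of the mitoribosome, which carry other symbols, moved in both directions. AURKAIP1, CHCHD1 and GADD45GIP1 rose, by 0.45 ± 0.07, 0.37 ± 0.07 and 0.35 ± 0.07 on the log2 scale (adjusted p = 0.000114, 0.000147 and 0.000291). DAP3, a GTP-binding protein of the small subunit, fell by 0.24 ± 0.06 (adjusted p = 0.00236), and PTCD3 was not called at -0.07 ± 0.05 (adjusted p = 0.321).

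The factors that build and run the mitoribosome had smaller medians than its proteins. Of 27 assembly and rRNA modification factors, 10 rose and 3 fell, with a median log2 fold change of 0.09. They included MPV17L2, an inner membrane protein that acts in mitoribosome assembly, which rose from 13.4 ± 1.33 to 20.5 ± 1.40 CPM (log2 fold change 0.61 ± 0.09), and NOA1, a GTPase, which fell from 83.9 ± 4.59 to 44.4 ± 2.73 CPM (-0.92 ± 0.06). Of 17 translation factors and messenger RNA binding proteins, 6 rose and 4 fell (median 0.06), with SLIRP and LRPPRC, which together stabilise mitochondrial messenger RNAs, moving in opposite directions at 0.68 ± 0.08 and -0.39 ± 0.05. Of 18 tested mitochondrial aminoacyl-tRNA synthetases of 19 listed, 4 rose and 6 fell (median 0.02), from LARS2 at 0.41 ± 0.07 to GARS1 at -0.94 ± 0.05, which serves the cytosol as well. Among all tested genes 23.1% were higher and 23.5% lower. The shares were 37.0% and 11.1% for assembly factors, 35.3% and 23.5% for translation factors, and 22.2% and 33.3% for synthetases.

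Other ribosomal and respiratory genes gave a scale for these shifts. Of 77 tested cytosolic ribosomal protein genes, 68 fell and 4 rose, with a median log2 fold change of -0.41, whereas 72 tested nuclear respiratory chain genes had 47 rising and 2 falling members and a median of 0.29. The 13 messenger RNAs of the mitochondrial genome all rose, with a median of 1.04. Mitoribosomal protein genes, at a median of 0.18, thus lay between the cytosolic ribosomal and the respiratory chain genes. Each list's median and counts come from the same fit, and differences between lists were not tested.

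**Figure D5:**
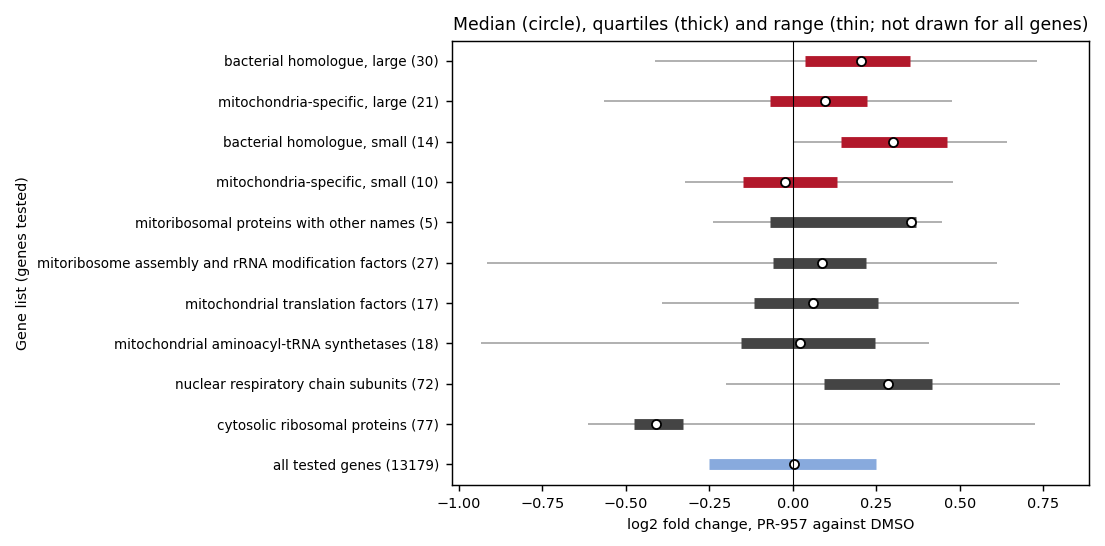
Log2 fold change of PR-957 against DMSO (x axis) for the lists of mitoribosomal protein genes (red), related lists (dark grey) and all 13179 tested genes (blue), as median (circle), quartiles (thick line) and range (thin line); numbers after the names are genes tested (y axis). Medians run from -0.41 for cytosolic ribosomal proteins to 0.35 for mitoribosomal proteins with other names, and that of small subunit genes with a bacterial homologue is 0.30.

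The relation of the changes to length and level of the transcripts was weak. Across the 76 genes Spearman's rho of the log2 fold change was -0.19 with exon length and -0.05 with average level, and across all 13179 tested genes it was -0.10 and -0.03. These are correlations across genes measured in the same libraries, and genes are not independent replicates.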

How the data were processed

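RNA libraries of 8 MOLM-13 samples were made with the TruSeq RNA kit from polyA RNA. Per the labels, the authors used Trimmomatic 0.39, STAR 2.7.10a on hg38, featureCounts 2.0.1 and DESeq2. The deposited table held raw counts of fragments for each gene, which the authors had counted on the reverse strand against NCBI RefSeq gene models with both ends mapped, per the file headers, with no normalization. The header named 16 libraries, of which the 8 in the table were analysed here. A further deposited table held the authors' own comparison (mean count, log2 fold change and p-values) and was not used. Gene rows without values (6) were left out. The strand setting separated antisense genes, as PCNA-AS1 had 0 to 5 counts where PCNA had 4152 to 8919.

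Groups and replicate numbers came from sample titles. PR-957 was compared with DMSO in a single fit over all genes by edgeR 4.0.16 in R 4.3.3 (trimmed mean of M-values, TMM, filterByExpr, glmQLFit with robust estimation, glmQLFTest, two-sided, no covariate), with Benjamini-Hochberg adjustment over 13179 genes and a threshold of 0.05. SE was the size of the log2 fold change over the root of the F statistic. CPM used TMM library sizes and TPM the table's exon lengths. Values are mean ± SD over 4 libraries. The fit was tested on simulated data. Total counts of 16675036 to 23111223 limit precision for genes with few counts, where 1 count equals 0.0437 to 0.0626 CPM. No replicates were duplicates, since the lowest chi-square of a pair was 3.32 per gene.

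Members and gene lists were chosen with earlier results of these data known, so lists are described by counts and medians and were given no p-value. The genes named were, in each subunit, the 5 largest increases and 5 largest decreases that were called at an average log2 CPM of at least 1, the highest and lowest level, untested members, 10 genes listed by name, and the top riser and faller of each related list. Others, such as neighbours, genes that share sequence and members of a region, were named after their values were seen. Alternatives were DESeq2 1.42.0, limma-voom (limma 3.58.1), 3 other scalings, 2 other filters, the replicate block, and other assignments of members. Further fits used a 2-level batch term for replicates 1 and 2 against 3 and 4, which the titles do not name as batches. Others used replicates 1 and 2 or 3 and 4 alone, or left out each library. Leaving out members that share exons on the same strand was added after the data were seen. Promoters were from RefSeq (GRCh38.p14) and start codons from GENCODE v44.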

Additional observations from a re-analysis of the deposited data

Results flagged for a closer look

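In 58 groups of 4 libraries, formed by the tested named genes, the summed levels and their ratio in each treatment, the highest or lowest library was checked for standing apart from the other 3, and 3 groups met Dixon's criterion. Chance alone flags about 1 in 20 groups. MRPS18A was at 68.5 CPM in DMSO replicate 3 and at 58.7 to 59.6 CPM in the other DMSO libraries. MRPS21 was at 188 CPM in PR-957 replicate 1 and at 162 to 166 CPM in the other PR-957 libraries. MRPS27 was at 145 CPM in DMSO replicate 4 and at 160 to 161 CPM in the other DMSO libraries, and it stayed lower in PR-957 in all 19 alternatives.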

How the results depend on the processing

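Of the 36 genes called higher, 24 kept the call in all 19 alternatives of the fit, as did 6 of the 9 called lower, and MRPL39 kept it in 8. With library totals as the only scaling, which moved the median of all genes to 0.08, the split of calls over all genes was 4066 higher and 2353 lower against 3045 and 3098, members were called higher in 47 and lower in 6 cases, of which 2 MRPS, the MRPS median was 0.23 and the log2 ratio of the MRPS sums was 0.20 against 0.12. The difference of medians, MRPL minus MRPS, was 0.0845 with replicates 1 and 2 alone and -0.0398 with replicates 3 and 4 alone, and ran from -0.0263 (without DMSO replicate 2) to 0.0676 (without DMSO replicate 4) when each library was left out. The MRPS median ran from 0.0912 (without DMSO replicate 4) to 0.20 in these fits. MRPS18B, with under 20 counts per library, changed sign without DMSO replicate 4 (-0.02), without PR-957 replicate 4 (-0.12) and with replicates 1 and 2 alone (-0.41). The cause of these shifts was not tested. To look for pairs, the deviations of log2 CPM from the mean of the library's own group were correlated between DMSO and PR-957 libraries. For the same replicate number these deviations correlated at 0.151, 0.213, 0.0985 and 0.198. Those of libraries numbered 1 or 2 correlated negatively with those numbered 3 or 4 of the other group, at -0.187 to -0.0411. Deviations cancel out within a group, so negative values are in part built in. The main fit did not take the numbers as pairs and so leaves out any structure that the numbers share. With the replicate block 43 members were higher and 10 lower, and 3513 and 3400 of all genes. Every DMSO library correlated best with its own number, and PR-957 replicate 3 correlated best with DMSO replicate 4 (0.105). The 2-level batch term set replicates 1 and 2 against 3 and 4, a split that no sample title names as a batch. With it 40 members were higher and 10 lower. MRPS12, MRPS24 and MRPS18B had too few counts for a change to be detectable, and the part of depth and of unassigned reads in this was not tested.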
